A study of Mus musculus with 8 samples.

Results

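Most clade A serpins are secreted, and many, though not all, inhibit proteases. The genes described here are the mouse alpha-1 antitrypsin copies Serpina1a to Serpina1e, their relative Serpina1f, the antichymotrypsin-like genes Serpina3n, Serpina3g and Serpina3k, and Serpina10. They were followed in kidneys of old and young lupus-prone mice. The 10 genes were chosen by their platform symbol, with earlier results of these data known, leaving out Serpina6, which carries corticosteroids and inhibits no protease. Of the 10, 8 were on a named probe, out of 19505 genes on one, while Serpina3g and Serpina3k were not and were not analysed here. Where a gene had several probes, the one with the highest mean over the 8 arrays was to be selected, but each of the 8 genes had 1 probe.

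The samples were kidneys of the NZBWF1 mouse, a cross between New Zealand Black and New Zealand White parents that is prone to lupus-like nephritis. Total RNA of 4 mice at 28 weeks of age (replicates 6 to 9) and 4 mice at 8 weeks (replicates 1 to 4) was read on Clariom S Mouse arrays with 1 colour, each array holding 1 mouse. Both ages are of the same hybrid, the labels name no treatment and no other strain, and age is therefore the only labelled difference. The values are log2 RMA values deposited by the authors, with array medians between 5.98 and 6.14. RMA removes background, makes arrays comparable and joins the oligonucleotides of a transcript into 1 value. A difference of 1 on this scale is 2-fold, and all differences below are 28 weeks minus 8 weeks. Of 10 nephron segment markers, 9 were on a named probe, with a mean log2 value per mouse between 14.72 and 15.33 at 28 weeks and between 15.12 and 15.51 at 8 weeks, so the labelled kidney was found. In 28-week replicate 7 many immune and injury genes lay near the 8-week mice, so the serpin values and the list counts are also given without it, a refit that for the lists was chosen after the values were seen.

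A serpin works as a bait. The target protease cuts an exposed loop, the serpin changes its shape, and the pair stays locked and is cleared. Alpha-1 antitrypsin, made mostly by hepatocytes, guards tissue against elastase from neutrophils, and in the mouse the gene has been duplicated into a set of near-identical copies that differ most in the exposed loop. Serpina3n is an acute phase serpin that inhibits granzyme B and leukocyte proteases. Serpina10, the protein Z-dependent protease inhibitor, restrains coagulation factors Xa and XIa.

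The near-identity of Serpina1a to Serpina1e, from which Serpina1f stands apart, is visible in the 120 bases before their annotated starts, read from the RefSeq promoter table (GRCm38.p6, all on chromosome 12) and shown because the age differences described below varied among such close copies. Sequences run 5′ to 3′ on the strand of the gene, and the capitals mark GTTAAT, the core of the hepatocyte nuclear factor 1 site.
Serpina1a (chr12:103863620-103863739, minus strand): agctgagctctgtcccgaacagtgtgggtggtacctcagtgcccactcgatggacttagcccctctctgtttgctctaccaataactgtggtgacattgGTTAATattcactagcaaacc
Serpina1b (chr12:103738190-103738309, minus strand): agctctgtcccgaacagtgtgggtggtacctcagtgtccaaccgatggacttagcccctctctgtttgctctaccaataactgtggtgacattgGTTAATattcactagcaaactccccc
Serpina1c (chr12:103904951-103905070, minus strand): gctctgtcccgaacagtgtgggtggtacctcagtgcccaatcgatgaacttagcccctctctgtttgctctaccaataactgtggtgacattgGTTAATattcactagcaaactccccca
Serpina1d (chr12:103773634-103773753, minus strand): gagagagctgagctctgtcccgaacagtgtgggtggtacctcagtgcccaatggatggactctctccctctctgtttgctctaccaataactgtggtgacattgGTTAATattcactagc
Serpina1e (chr12:103956898-103957017, minus strand): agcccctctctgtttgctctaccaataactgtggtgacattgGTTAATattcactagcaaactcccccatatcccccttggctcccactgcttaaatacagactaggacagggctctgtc
Serpina1f (chr12:103695530-103695649, minus strand): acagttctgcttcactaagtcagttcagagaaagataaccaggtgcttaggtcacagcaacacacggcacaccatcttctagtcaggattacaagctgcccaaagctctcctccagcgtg
Over the 250 bases before the start, aligned pairwise with free ends, Serpina1a to Serpina1e were 92.1% to 98.0% identical in 10 pairs, with 188 to 248 bases aligned. All 5 held GTTAAT once, and Serpina1f did not. On either strand, GTTAAT stood in 6.43% of all 32851 promoter entries of that length. The first base of this motif lies at different distances before the annotated start, from 16 bases in Serpina1d to 78 in Serpina1e. The annotated starts lie at different points of the same sequence. The other motifs searched on both strands were TTCNNNGAA (STAT), TTCCNGGAA (a stricter STAT form within it), TTGCNNAA (C/EBP), CAAAGTCCA (nuclear factor 4) and TATAAA. TTGCNNAA stood in the promoters of Serpina1b, Serpina1d, Serpina1e and Serpina1f and in 9.56% of all entries, and TTCNNNGAA in those of Serpina1f and Serpina3g and in 7.02% of all. None of the remaining motifs matched in the windows of the 8 listed genes that the table holds, which are Serpina1a to Serpina1f, Serpina3n and Serpina3g. These matches describe letters only.

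Among the 8 measured serpins, 7 had a higher mean at 28 weeks and 4 of them were at least 2-fold higher, namely Serpina1b, Serpina1a, Serpina3n and Serpina10. None of the 8 passed the threshold, a limma p under 0.05 after Benjamini-Hochberg adjustment across the 22206 probes, which 0.968% of the probes passed. At an unadjusted p under 0.05, limma called 4 of the 8 (15.0% of all probes) and an unmoderated test with unequal variances, which called no probe after adjustment, 2 of the 8 (11.6% of all probes). A difference of at least 2-fold was seen in 3.17% of all probes and a 2-fold higher mean at 28 weeks in 2.30%. The median difference of the 8 genes was 1.11, against -0.01 over all probes. In 1 of the 8, Serpina1b, the ages did not overlap, and 4.38% of all probes were separated in that direction. Since the genes were chosen with earlier results of these data known, these counts are a description. In whole kidney RNA, a change in the number of cells that express a gene and a change in RNA per cell cannot be told apart.

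**Figure D1:**
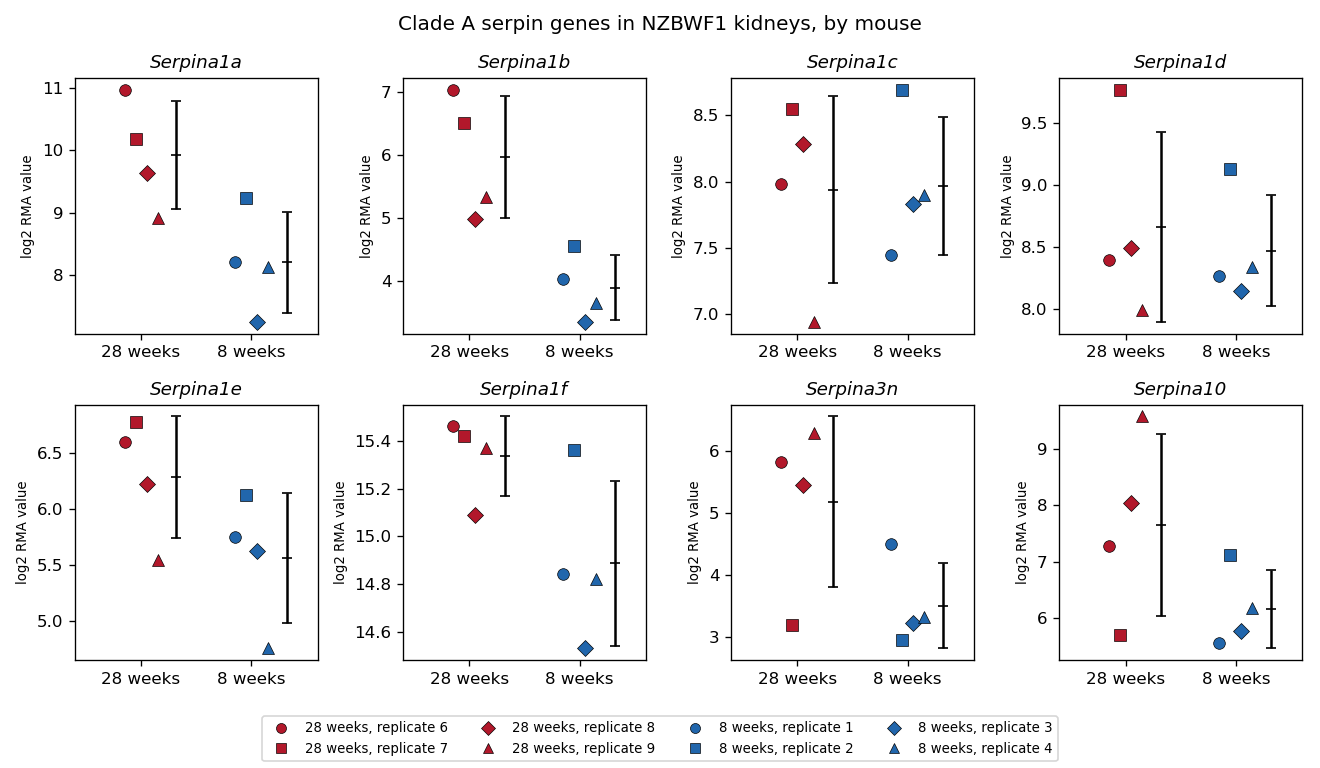
Log2 RMA value of each of the 8 measured serpin genes in every mouse, 28 weeks (red) left of 8 weeks (blue), with the mean and SD of 4 mice in black beside each group; axes differ between panels. Serpina1b alone has its 4 28-week mice above its 4 8-week mice, and 28-week replicate 7 (red square) lies high for the Serpina1 genes and low for Serpina3n and Serpina10.

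Serpina1b and Serpina1a, copies of the elastase inhibitor gene, had the largest differences when all 8 mice were used, though without 28-week replicate 7 those of Serpina3n and Serpina10 were larger and with array weights that of Serpina3n was. Serpina1b was 7.03, 6.51, 4.98 and 5.33 in 28-week replicates 6, 7, 8 and 9, against 4.02, 4.55, 3.34 and 3.65 in 8-week replicates 1, 2, 3 and 4. Every 28-week mouse was above every 8-week mouse, with 28-week replicates 6 and 7 highest. The means were 5.96 ± 0.97 at 28 weeks and 3.89 ± 0.52 at 8 weeks (SD, n = 4 mice each), a log2 difference of 2.07 with a 95% confidence interval of 1.10 to 3.05, or 4.21-fold (limma, adjusted p = 0.0609). The lower quartile of the probes was 4.16 to 4.44 in the 8 arrays. In 8-week replicates 1, 3 and 4 Serpina1b lay below it, and in replicate 2 slightly above it. RMA compresses differences among such dim values. Its adjusted p was 0.0418 with array weights and 0.0472 in limma with trend and robust options, where 3.93% and 1.80% of all probes passed, and 0.049 without 28-week replicate 7, where 5.57% passed, but 0.0692 without both that mouse and 8-week replicate 1.

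Serpina1a was 10.96, 10.17, 9.63 and 8.91 in 28-week replicates 6, 7, 8 and 9, against 8.21, 9.23, 7.25 and 8.13 in the 8-week mice. The groups overlapped through one mouse of each age, because 28-week replicate 9 was below 8-week replicate 2. The means were 9.92 ± 0.87 at 28 weeks and 8.21 ± 0.81 at 8 weeks, a difference of 1.71 (95% confidence interval 0.66 to 2.76) or 3.28-fold (limma, adjusted p = 0.115). No alternative brought its adjusted p under the threshold.

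Serpina1c and Serpina1d, which lie beside these copies in the gene cluster, had mean differences near 0. Serpina1c was 7.98, 8.55, 8.28 and 6.94 in the 28-week mice, against 7.45, 8.69, 7.83 and 7.90 in the 8-week mice. The ages were intermingled, with a difference of -0.03 and a 95% confidence interval of -0.82 to 0.76 (limma, adjusted p = 0.984). Serpina1d was 8.39, 9.77, 8.49 and 7.99 at 28 weeks, against 8.26, 9.13, 8.14 and 8.34 at 8 weeks. Its highest mouse was 28-week replicate 7, and its difference of 0.19 (95% confidence interval -0.61 to 0.999, limma, adjusted p = 0.878) became -0.18 without that mouse. These intervals still allow differences of more than 1.5-fold in either direction.

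Serpina1e was intermediate. It was 6.59, 6.77, 6.22 and 5.55 at 28 weeks, against 5.75, 6.12, 5.63 and 4.76 at 8 weeks, so 3 of the 4 28-week mice exceeded all 8-week mice. The difference was 0.72 (95% confidence interval -0.01 to 1.44), or 1.64-fold (limma, adjusted p = 0.337), and it was 0.45 without 8-week replicate 4, the lowest young mouse. Serpina1f, whose promoter window lacked GTTAAT, was bright in every mouse and varied least. It was 15.46, 15.42, 15.09 and 15.37 at 28 weeks, against 14.84, 15.36, 14.53 and 14.82 at 8 weeks. The groups overlapped through 8-week replicate 2, the only young mouse inside the range of the old ones. The difference of 0.45 (95% confidence interval 0.03 to 0.87), or 1.36-fold, had an adjusted p of 0.297 (limma).

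Whether the Serpina1 genes differed unequally with age was asked within each array, by subtracting one gene from another. This was chosen after the values were seen and covered 15 pairs of the 6 Serpina1 genes. It used a two-sided exact permutation test with 70 arrangements of the mice, whose smallest possible p is 0.0286. The differences of Serpina1a or Serpina1b over Serpina1c or Serpina1d were 1.52 to 2.10 larger at 28 weeks. Serpina1b minus Serpina1c, for example, was -1.98 ± 0.99 at 28 weeks and -4.08 ± 0.46 at 8 weeks (exact permutation p = 0.0286, adjusted over the 15 pairs 0.0857). All 4 such pairs and Serpina1b minus Serpina1f reached the smallest possible p, and none of the 15 passed after adjustment. Pairs at that smallest p could pass only if more of the 15 had reached it. The lack of a pass therefore does not show that the genes differed equally. Serpina1a minus Serpina1b differed by -0.36 between the ages (exact permutation p = 0.257, adjusted 0.321). The probe sequences of the copies were not examined, and signal may be shared among such close paralogs, so the separate values of Serpina1a to Serpina1e are uncertain.

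**Figure D2:**
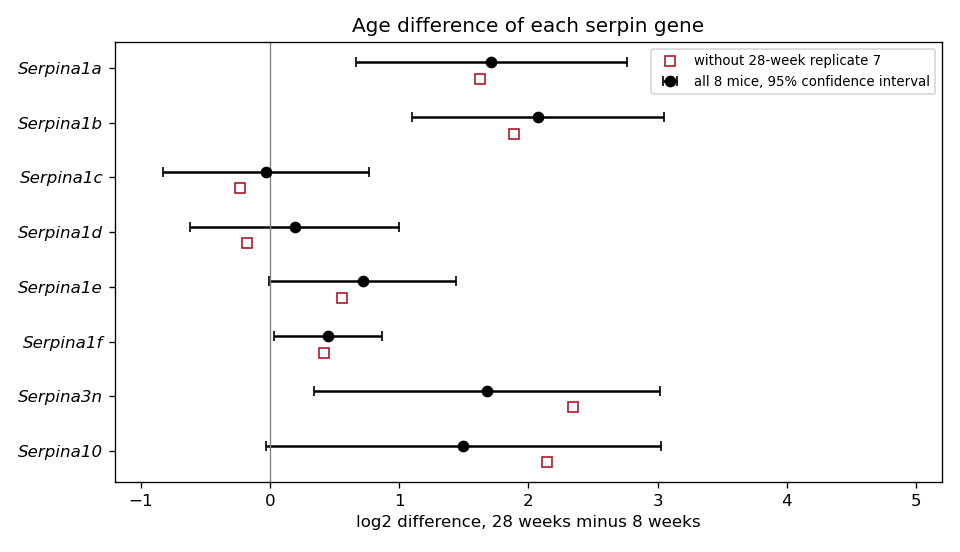
Log2 difference, 28 weeks minus 8 weeks, of each measured serpin gene (black points, bars are 95% confidence intervals from limma, n = 4 mice per age) and the same without 28-week replicate 7 (open red squares). Leaving that mouse out moves Serpina3n and Serpina10 to the right, to 2.34 and 2.145, and the Serpina1 genes to the left.

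Serpina3n, the acute phase inhibitor of granzyme B, was high in a different set of old mice. It was 5.81, 3.19, 5.44 and 6.28 in 28-week replicates 6, 7, 8 and 9, against 4.50, 2.96, 3.22 and 3.32 in the 8-week mice. Of the 28-week mice 3 were above every 8-week mouse, and replicate 7 lay among the lowest 8-week values. Of the 8-week mice, replicate 1 stood highest. The means were 5.18 ± 1.37 at 28 weeks and 3.50 ± 0.68 at 8 weeks, a difference of 1.68 (95% confidence interval 0.34 to 3.02) or 3.20-fold (limma, adjusted p = 0.21). Without 28-week replicate 7 the difference was 2.34 (limma, adjusted p = 0.00494), where 5.57% of all probes passed. Without both that mouse and 8-week replicate 1, an alternative chosen after seeing the data, it was 2.68 (limma, adjusted p = 0.000497), where 6.23% passed. These are its lowest old mouse and its highest young mouse, so a larger difference follows from leaving them out. The probe was dim in the young mice and was removed by a filter that left out the dimmest 33.3% of probes, so a low value there does not show absence.

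Serpina10, the inhibitor of factors Xa and XIa, had the widest range of the 8 genes. It was 7.27, 5.70, 8.05 and 9.58 at 28 weeks, against 5.55, 7.12, 5.77 and 6.18 at 8 weeks. Replicates 6, 8 and 9 were above all young mice, replicate 6 by little, and replicate 7 was inside their range. The means were 7.65 ± 1.62 at 28 weeks and 6.16 ± 0.69 at 8 weeks, a difference of 1.495 (95% confidence interval -0.03 to 3.02) or 2.82-fold (limma, adjusted p = 0.344). Without 28-week replicate 7 it was 2.145 (limma, adjusted p = 0.0486). Without 28-week replicate 9, the highest mouse, it was 0.85 (limma, adjusted p = 0.637), and with 28-week replicate 7 and 8-week replicate 1 both left out it was 1.94 (limma, adjusted p = 0.0867), so the call rested on which mice were kept.

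The same mouse therefore ranked differently in the 2 sets of genes. For the 6 Serpina1 genes, 28-week replicate 7 was the highest or second highest of the 28-week mice in all 6, and the highest in 3. For Serpina3n and Serpina10 it was the lowest. Conversely, replicate 9 was highest of the 28-week mice for Serpina3n and Serpina10 and lowest for 4 of the 5 copies Serpina1a to Serpina1e. Among the young mice, replicate 2 was highest for 7 of the 8 genes, Serpina3n being the exception. Such places were not counted over all probes. Those of the close Serpina1 copies may not be independent, since signal may be shared among them.

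**Figure D3:**
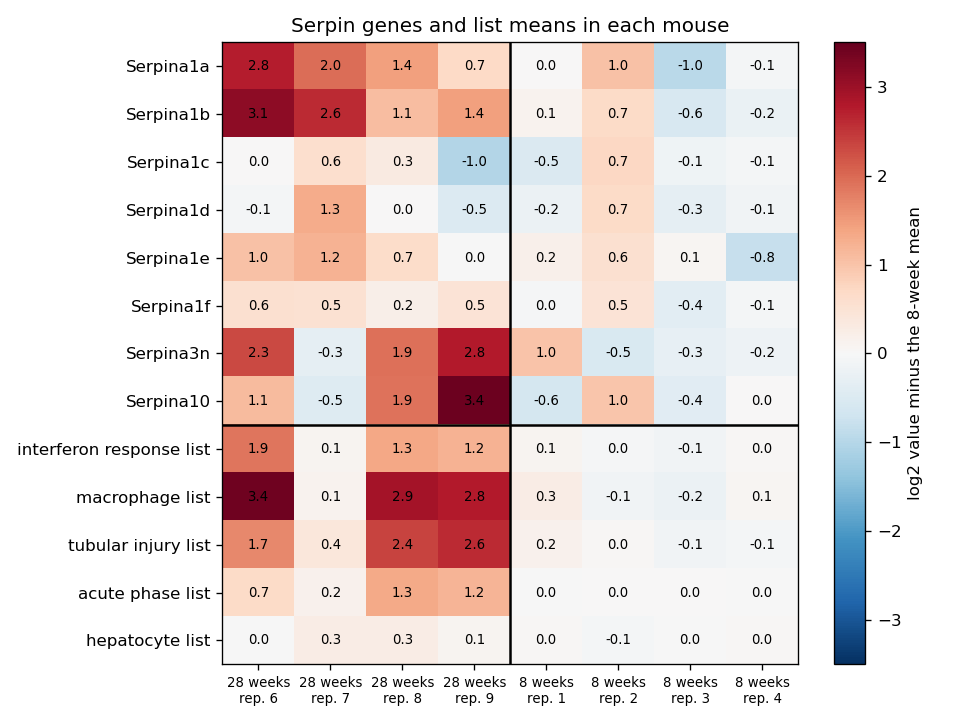
Log2 value of each serpin gene, and of the mean of 5 marker lists, in every mouse minus the mean of the 4 8-week mice; 28-week mice are the left columns. In 28-week replicate 7 Serpina1a and Serpina1b are at 1.965 and 2.62 while Serpina3n, Serpina10 and the macrophage list are at -0.31, -0.46 and 0.11.

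Marker lists of other cells moved with some of these values. The mean log2 value of 14 macrophage markers per mouse was 10.16, 6.88, 9.68 and 9.53 in 28-week replicates 6 to 9, against 6.55 to 7.02 at 8 weeks. All 14 had a higher mean at 28 weeks, with none past the threshold over all probes in all mice and 13 without replicate 7. Without that mouse 5.57% of all probes passed, against 0.968% in all mice. It was left out because immune and injury genes were low in it. The calls added in such lists, here and below, therefore follow in part from that choice. Lyz2, which encodes lysozyme in macrophages, was 14.10, 8.78, 12.83 and 12.45 at 28 weeks, against 8.90, 7.22, 6.84 and 7.05 at 8 weeks. Fcgr3, an Fc receptor gene, had a difference of 1.16 (limma, adjusted p = 0.0506) and the leukocyte phosphatase gene Ptprc, or CD45, one of 1.695 (limma, adjusted p = 0.215). The mean of 13 tubular injury markers was 9.48, 8.19, 10.16 and 10.41 in 28-week replicates 6 to 9, against 7.68 to 7.96 at 8 weeks, with 4 of 13 higher past the threshold, namely Cdkn1a, Dcdc2a, Vcam1 and Anxa2, and 8 without replicate 7. Of 17 interferon response genes all 17 had a higher mean and 1, the ubiquitin-like modifier gene Isg15, passed, and 14 without replicate 7. Serpina3n and Serpina10 were high in the same 3 old mice as the macrophage and injury lists. Serpina1a and Serpina1b were as high in replicate 7, where the macrophage list was at its 8-week level, as in the mean of the other old mice, at 1.965 and 2.62 above the 8-week mean against 1.63 and 1.89. The part of these cells in the serpin values was not tested.

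Hepatocyte markers were examined because the liver is the main source of these inhibitors. The mean of the 15 markers was 6.16 to 6.45 at 28 weeks and 6.11 to 6.22 at 8 weeks, with none past the threshold and 1, the fibrinogen beta chain gene Fgb, without 28-week replicate 7. Fgb, also an acute phase gene, was 6.10, 5.41, 8.56 and 7.53 at 28 weeks, against 4.91, 5.75, 5.17 and 4.70 at 8 weeks, the largest difference of the list at 1.77 (limma, adjusted p = 0.175). It stood highest in replicates 8 and 9, and replicate 7 was inside the range of the young mice. Several of the 15 markers, named here after their values were seen, were dim at both ages, while others were bright. Apoa1 averaged 3.67 at 28 weeks and 3.61 at 8 weeks, Ahsg 3.25 at 28 weeks and 3.27 at 8 weeks, and Fabp1 3.39 at 28 weeks and 3.40 at 8 weeks. Among the bright ones, Apob averaged 14.68 at 28 weeks and 14.31 at 8 weeks (limma, adjusted p = 0.295). Ttr, the transthyretin gene, averaged 15.19 at 28 weeks and 14.39 at 8 weeks (limma, adjusted p = 0.184). Cyp2e1, a cytochrome P450 gene, was 7.83, 10.22, 10.27 and 8.54 at 28 weeks, against 10.96, 10.88, 10.11 and 10.46 at 8 weeks (difference -1.39, limma, adjusted p = 0.222). Alb, the albumin gene, was 9.96, 11.36, 10.49 and 9.58 at 28 weeks, against 9.22, 9.83, 9.80 and 9.74 at 8 weeks, and was highest in replicate 7 (difference 0.70, limma, adjusted p = 0.374). Neutrophil markers, whose elastase is the classical target of alpha-1 antitrypsin, had a mean of 4.05 to 4.21 at 28 weeks and 3.85 to 4.21 at 8 weeks, and none of 11 passed, against 1, the receptor gene Csf3r, without replicate 7. Csf3r was 5.68, 4.23, 5.41 and 4.99 at 28 weeks, against 3.21, 4.21, 3.94 and 3.74 at 8 weeks, and the granule protein gene Ngp had a difference of 0.17. The mean of 7 adrenal markers was 4.18 to 4.27 at 28 weeks and 4.06 to 4.24 at 8 weeks, with differences of -0.26 for the steroid dehydrogenase gene Hsd3b1 and 0.46 for the corticotropin receptor gene Mc2r, and none of the 7 passed with or without replicate 7. The neutrophil and adrenal means lay near or below the lower quartile of the probes, 4.16 to 4.44 in the 8 arrays. A lack of calls in these lists therefore does not show absence of such cells.

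The genes around these inhibitors on chromosome 12 did not share one direction. In the RefSeq order of GRCm38.p6 the cluster holds 28 Serpina genes and pseudogenes, of which 19 were measured. Serpina6, the corticosteroid-binding globulin gene, lies between Serpina10 and the Serpina1 copies and was the one clade A gene past the threshold, 5.97 ± 0.50 at 28 weeks and 9.04 ± 0.57 at 8 weeks, a difference of -3.06 (limma, adjusted p = 0.005). Serpina6 was low in all 4 old mice, replicate 7 included. Of the 13 clade A genes measured beside the inhibitors described above, Serpina6 included, 1 was lower and none higher past the threshold, Serpina3f being added on the higher side without 28-week replicate 7, and their median difference was 0.01. Serpina3f, a close relative of Serpina3g and Serpina3n, had a difference of 1.03 (limma, adjusted p = 0.126), and the thyroxine-binding globulin gene Serpina7, on the X chromosome, one of 0.51 (limma, adjusted p = 0.102). Angiotensinogen, encoded by Agt and a clade A serpin by sequence, was 11.23 ± 0.29 at 28 weeks and 11.16 ± 0.27 at 8 weeks.

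**Figure D4:**
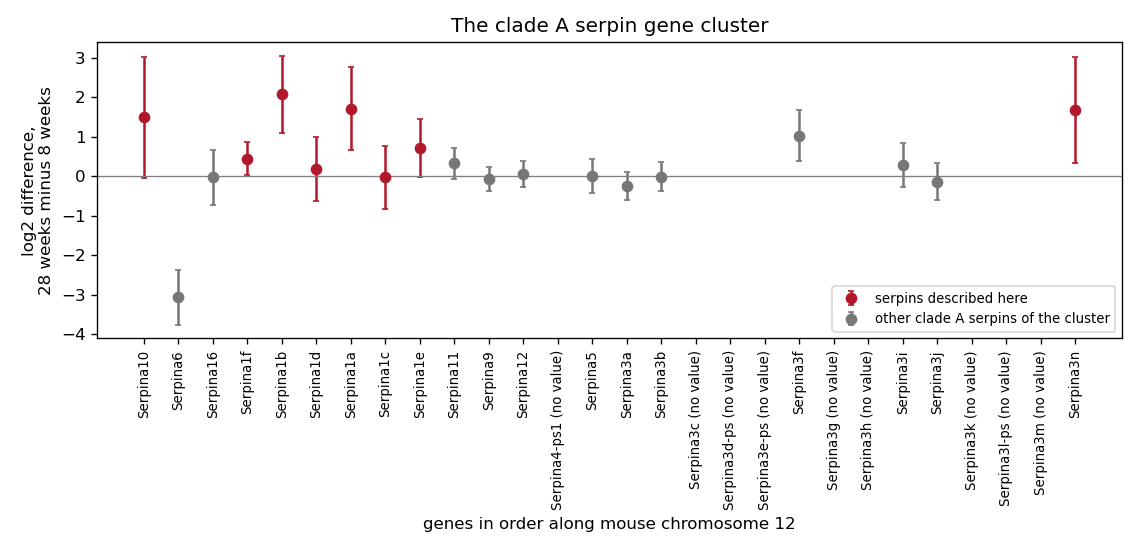
Log2 difference, 28 weeks minus 8 weeks, of the 19 measured genes of the clade A serpin cluster in their order along mouse chromosome 12, with 95% confidence intervals (limma, n = 4 mice per age); red marks the genes described here and grey the others. Positions marked "no value" were not on a named probe. Serpina6 at -3.06 lies between Serpina10 at 1.495 and the Serpina1 copies, which range from -0.03 to 2.07.

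Serpins of other clades gave no call in all 8 mice, and 3 of 21, all higher, without 28-week replicate 7, namely Serpinb6b, Serpinb9 and Serping1. In all mice 13 had a higher and 8 a lower mean at 28 weeks, with a median difference of 0.10. Serpinb9, the intracellular granzyme B inhibitor, was 10.32, 9.50, 10.26 and 10.69 at 28 weeks, against 9.09, 9.50, 8.69 and 9.10 at 8 weeks (difference 1.10, limma, adjusted p = 0.0807). Serping1, the C1 inhibitor of complement and contact activation, had a difference of 1.47 (limma, adjusted p = 0.0953). In both, replicate 7 was the lowest old mouse, as for Serpina3n, and without it the differences were 1.33 and 1.78 (limma, adjusted p = 0.00643 and 0.0113).

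A list of proteases and related genes, not all of them targets of serpins, had 26 measured genes. None of the 26 passed, and 11 had a higher mean. The smallest p belonged to the lysosomal cathepsins Ctsb and Ctss. Ctsb had a difference of 0.62 (limma, adjusted p = 0.0924), and Ctss was 11.97, 7.07, 11.46 and 11.37 at 28 weeks, against 7.40, 7.29, 6.86 and 6.89 at 8 weeks. Ctss thus stood high in 3 old mice and at the young level in replicate 7, and both Ctsb and Ctss passed without that mouse, at differences of 0.73 and 4.49. Of 8 receptors that take up serpin complexes or other plasma proteins, 2 had a higher mean and none passed, with or without replicate 7. Vldlr had a difference of -0.42 (limma, adjusted p = 0.216) and Sort1 one of 0.58 (limma, adjusted p = 0.278).

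Known inducers and companions of these genes were read from 3 further lists. Of 21 acute phase plasma proteins 15 had a higher mean and none passed, against 5, all higher, without replicate 7 (Hp, Fgb, Fgg, Cp and Lcn2), with the copper carrier gene Cp at 1.80 (limma, adjusted p = 0.0606) and Lcn2, a siderophore-binding protein gene, at 6.25 (limma, adjusted p = 0.0752) in all mice. Without replicate 7 these were 2.10 and 7.99 (limma, adjusted p = 0.00672 and 0.000117). Of 20 genes of interleukin-6, STAT3 and C/EBP signalling 16 had a higher mean and none passed, against 7, all higher, without replicate 7. The interleukin-1 receptor gene Il1r1 was 9.05, 8.05, 8.57 and 9.29 at 28 weeks, against 8.08, 7.63, 7.52 and 7.52 at 8 weeks (limma, adjusted p = 0.0922, and 0.00892 without replicate 7), and Bcl3, a modulator of NF-kappa-B, had a difference of 2.23 (limma, adjusted p = 0.083), or 2.82 without replicate 7 (limma, adjusted p = 0.000814). Of 8 hepatocyte nuclear factors and their partners 7 had a lower mean, and Nr1h4, the bile acid receptor gene, fell by 1.04 on the log2 scale (limma, adjusted p = 0.0307). Proximal tubule markers were lower on average, with 11 of 11 lower in the S1 and S2 list, where the organic anion transporter gene Slc22a6 passed (difference -0.91), and Slc5a2 too without replicate 7, and 7 of 10 in the S3 list, where Slc22a30 passed (difference -1.80). The median difference of all probes was -0.01.

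For each serpin whose 8 values spanned at least 2 on the log2 scale, the 4 genes of most similar pattern were found by the mean absolute gap over the 8 arrays, after each gene was centred on its own mean. Smaller gaps are more alike, and the arrays share their normalization, so this describes these 8 mice only. The genes were picked for following the serpin in these same mice, so their shared highs and lows and their calls follow from that choice. The smallest gaps of so many genes lie below the median for any gene, so the medians given only show the scale. For Serpina3n these were C3ar1, the receptor of complement fragment C3a (gap 0.17), Tagln, a smooth muscle actin-binding protein gene (0.21), Mgp (0.25) and Tlr7, an RNA sensor gene (0.27), where the median gap of all genes was 1.20. C3ar1 was 8.87, 6.16, 8.45 and 8.94 at 28 weeks, against 6.90, 6.10, 6.10 and 6.20 at 8 weeks, again low in replicate 7. None of the 4 passed in all mice, and all 4 did without that mouse, as did Serpina3n, which they were picked to follow. For Serpina10 they were Timp1, an inhibitor of metalloproteinases (0.31), Havcr1, the gene of the tubular injury protein KIM-1 (0.36), Slc34a2 (0.40) and Adamts1 (0.40), against a median of 1.12. Havcr1 was 15.59, 13.62, 16.51 and 17.22 at 28 weeks, against 14.15, 15.71, 14.79 and 15.11 at 8 weeks, and like Serpina10 it was highest in 28-week replicate 9 and, among the young, in replicate 2. None of these 4 passed in all mice, and without replicate 7 all but Havcr1 did, as did Serpina10, which they were picked to follow.

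The genes most like the Serpina1 copies were others. Muc20, a transmembrane mucin gene, came first for both Serpina1a (gap 0.34) and Serpina1b (0.26). It was 10.26, 8.84, 8.12 and 8.10 at 28 weeks, against 7.27, 7.41, 6.51 and 6.90 at 8 weeks, so the old mice were all above the young. Ifitm1, Hacd4 and Rtn1 followed for Serpina1a, and Aldoc, Scel and Muc1 for Serpina1b, with gaps up to 0.45 and 0.37, against medians of 0.96 and 1.06. Of these only Muc1, the epithelial mucin gene, passed the threshold in all mice (difference 1.74, limma, adjusted p = 0.0426), joined by Ifitm1 and Rtn1 without replicate 7. For Serpina1e they were Susd4, Gadd45g, Gpx6 and Ralyl, with gaps of 0.17 to 0.22 against a median of 0.55.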

How the data were processed

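Kidney RNA of 8 mice was measured on Clariom S Mouse arrays, per the labels. The log2 values were deposited by the authors and made with RMA, per the submitters' processing notes, which name no version or settings. Base 2 of the logarithm is an assumption from RMA's usual output and from values between 2.31 and 19.89. RMA gives no detection call. No column outside the 8 samples was present.

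Probes were named from the platform annotation, which gave 1 symbol to 19572 of 22206 probes. Every probe was tested, 28 weeks minus 8 weeks, in limma 3.58.1 under R 4.3.3 (lmFit, eBayes), and p-values were adjusted by Benjamini-Hochberg across the whole table. The code was tested on simulated data. No batch was given, and replicate numbers are not shared between ages. The genes, the lists and the rule for naming were chosen with earlier results of these data known. The rule named each listed serpin, the members of each list past the threshold (at most 4 per direction, otherwise the 2 with the smallest p), a few fixed genes and the genes of most similar pattern. Other genes, such as Cyp2e1, Serpina3f and Serpina7, were named after their values were seen. Planned tests of pairs among Serpina3n, Serpina3g and Serpina3k could not be made, since 2 of the 3 were not on a named probe. Promoters came from RefSeq (GRCm38.p6). Alternatives were other normalizations, a filter on dim probes, other variance models, an unmoderated test with unequal variances and leaving out each mouse. Precision is limited by the number of arrays. Figures and exact tests used Python 3.11.15, scipy 1.17.1 and Biopython 1.88.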

Additional observations from a re-analysis of the deposited data

Results flagged for a closer look

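In none of the 8 serpin genes did a single mouse pass Dixon's 95% critical value. The measure was the gap to the nearest mouse divided by the range of the 4 mice of its age. With 4 mice only an extreme gap passes, so this does not show that no mouse lay apart. Serpina3n was 3.19 in 28-week replicate 7 and 5.44 to 6.28 in the other 28-week mice. It was 4.50 in 8-week replicate 1 and 2.96 to 3.32 in the other 8-week mice. Of 52 groups so examined, serpin genes and list means together, 3 had a mouse past the critical value, and chance gives about 1 in 20. The mean of the receptors that take up serpin complexes was lowest, at 12.74, in 8-week replicate 3, where the nearest young mouse was at 12.87. The mean of the T and NK cell markers was highest, at 4.707, in the same mouse, where the nearest was at 4.51. The mean of the nephron segment markers was highest among the old mice, at 15.33, in replicate 7, where the nearest was at 14.81.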

How the results depend on the processing

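Across the alternatives to the fit over all 8 mice, 117 values of single serpins kept their direction and their side of the threshold, 6 moved past the threshold and 4 changed sign. The sign changed only for Serpina1c (0.30 without 28-week replicate 9 and 0.21 without 8-week replicate 2) and Serpina1d (-0.18 without 28-week replicate 7 and -0.25 without that mouse and 8-week replicate 1 together, an alternative chosen after seeing the data). With mice left out, Serpina1c ranged from -0.41 to 0.30 and Serpina1d from -0.25 to 0.42. The number of serpins past the threshold, 0 in all mice, was 1 with array weights, 1 with trend and robust options, both times Serpina1b, 0 to 3 with 1 mouse left out, and 1, Serpina3n, without both mice. The 3 were Serpina1b, Serpina3n and Serpina10 without 28-week replicate 7, and the other 7 single omissions gave 0. The number of probes past the threshold, 215 in all mice, was 399 with trend and robust options, 873 with array weights, 0 with unequal variances and no moderation, 25 to 1237 with 1 mouse left out and 1384 without both. The lowest was without 28-week replicate 9 and the highest without 28-week replicate 7. Apart from the removal of mice, the causes were not tested. Serpina3n was not tested after the dimmest 33.3% of probes were left out. No paired analysis was possible because the 2 ages share no replicate number. Pairs of Serpina3 genes were not compared, since Serpina3g and Serpina3k were not analysed here.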

Other observations

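Of 12 T and NK cell markers 11 had a higher mean at 28 weeks, and of 8 B and plasma cell markers all 8 did, with none past the threshold in all mice and 4 and 1 without 28-week replicate 7. Cd3e, a T cell receptor chain gene, had a difference of 1.08 (limma, adjusted p = 0.105), Icos, a T cell costimulator gene, one of 0.73 (limma, adjusted p = 0.2) and Sdc1, the syndecan gene of plasma cells and epithelia, one of 0.52 (limma, adjusted p = 0.15). Jchain, the joining chain gene of secreted immunoglobulins, was 12.79, 7.52, 10.47 and 5.83 in 28-week replicates 6, 7, 8 and 9, against 4.49, 4.47, 3.49 and 5.08 in the 8-week mice (limma, adjusted p = 0.0971). Its order of old mice differed from that of Serpina3n, which was highest in replicate 9. Calb1, the calcium-binding protein gene of the distal tubule, averaged 12.07 ± 1.56 at 28 weeks and 14.79 ± 0.23 at 8 weeks (limma, adjusted p = 0.0752), with 14.17 in 28-week replicate 7, and passed without that mouse (difference -3.41). Slc12a1, the cotransporter gene of the thick ascending limb, had a difference of 0.99 (limma, adjusted p = 0.0916).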
